A study of Mus musculus with 7 samples.

Results

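Hippocampal RNA from mice injected with the immunoproteasome inhibitor ONX-0914 was compared with that of untreated mice, here called control. The 5 libraries of the comparison were selected by their treatment label from the 7 RNA-seq libraries of the study, and each held the reads counted on every annotated gene. All mice were males of the outbred CD1 stock. The 2 ONX-0914 libraries (replicates 1 and 2) came from mice that had received 10 mg/kg of the inhibitor intraperitoneally, 2 injections a week over 2 months, and the 3 control libraries (replicates 1 to 3) came from mice with no injection. The remaining 2 libraries (DMSO replicates 2 and 3) came from mice injected with DMSO, the solvent, on that schedule. They entered the fit to estimate the spread, and their levels are given beside the others, because in a comparison with untreated mice the inhibitor, the solvent and the injections cannot be told apart. The labels do not say that each library came from a separate mouse, so the p-values measure the spread between these libraries, which may be technical.

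Proteasomes are protease complexes that degrade most intracellular proteins, and a cap of regulatory subunits feeds substrates into their barrel-shaped core. In the immunoproteasome, the catalytic subunits encoded by Psmb8, Psmb9 and Psmb10 replace the constitutive ones, and ONX-0914 binds mainly the subunit encoded by Psmb8. In the hippocampus, glutamate released onto AMPA and NMDA receptors lets calcium into the postsynaptic neuron, where calmodulin and CaMKII take part in long-term potentiation (LTP), a lasting strengthening of the synapse that is studied as a correlate of learning.

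The total count per library was between 2842675 and 3877006, except in ONX-0914 replicate 2, with 13782270. Mitochondrially encoded genes took 3.71% of the counts in that library and between 0.818% and 1.59% in the others. Levels are given as CPM, the counts relative to the size of the library, scaled by TMM, which corrects for library composition, and are not divided by gene length. Marker genes of hippocampal regions and of other tissues were summed per library as a check of the tissue label. In ONX-0914 replicate 1, the thalamus list summed to 1375 CPM, against 178 to 220 CPM in control and 154 CPM in the other ONX-0914 library. The striatum list summed to 1419 CPM there, against a control range of 314 to 364 CPM and 260 CPM in replicate 2. The same library was low in markers of pyramidal neurons of field CA1, with 220 CPM against a control range of 621 to 696 CPM and 732 CPM in replicate 2. Its dentate gyrus markers summed to 265 CPM, against a control range of 594 to 752 CPM and 659 CPM in replicate 2. In ONX-0914 replicate 2, blood markers summed to 837 CPM, against 96.4 CPM in the other and 30.0 to 40.1 CPM in control. Thus both libraries stood apart from control, replicate 1 in the thalamus, striatum, CA1 and dentate gyrus lists and both in the blood list, where the difference was larger in replicate 2, as the plot of summed markers shows. In bulk tissue, fewer cells of a type and less RNA per cell cannot be told apart. A chi-square statistic of the counts per degree of freedom was 76.9 between the ONX-0914 libraries and 2.50 to 3.20 for pairs within the control and within the DMSO group. Between control libraries and ONX-0914 replicate 1 it was 18.6 to 22.9, and between control libraries and replicate 2 it was 47.7 to 59.9. The ONX-0914 libraries thus differed more from each other than either did from control. This statistic grows with depth, so pairs with the deeper replicate 2 are not on a like footing.

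**Figure D1:**
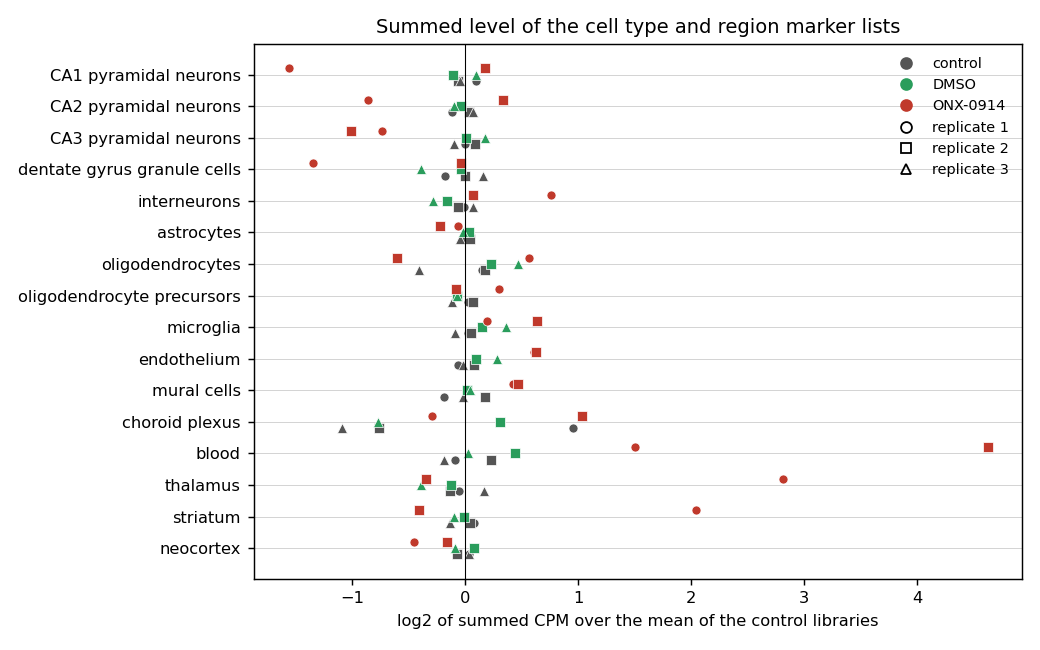
Summed CPM of each marker list in every library, as the log2 ratio to the mean of the 3 control libraries (horizontal axis), with 1 line per list, control in grey, DMSO in green and ONX-0914 in red, and the symbol giving the replicate. ONX-0914 replicate 1 (circles) lies far right for thalamus and striatum and far left for CA1 and dentate gyrus, and both lie right of control for blood, replicate 2 (squares) farther.

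In the comparison of ONX-0914 with control, 5 genes rose and 10 fell. The largest increases were in Cwc22 (11.2-fold), which encodes a splicing factor, the antisense gene 1500015A07Rik (9.01-fold) and Kitl (8.03-fold), the ligand of the receptor tyrosine kinase Kit. The largest decreases were in the antisense gene AC165951.1, in Krt2 (9.75-fold), a keratin, and in the lincRNA gene Gm26644 (8.84-fold). The test was edgeR's quasi-likelihood F test with Benjamini–Hochberg adjustment, and a gene was called at an FDR under 0.05. The 15 called genes were 0.114% of the 13152 genes tested (5 higher, 0.038%, and 10 lower, 0.076%). The median log2 fold change (Log2FC) of all tested genes was 0.05. The ONX-0914 and control libraries did not overlap in any of the 15, which was so for 16.9% of all tested genes on the higher side and for 16.3% on the lower side. The number of calls depended on the libraries in the fit. With the DMSO libraries left out, 3 genes were called (3300002P13Rik, AC165951.1 and Gm26644), and without any 1 of the 3 control libraries the number fell to 0, where edgeR still gave 1424 to 1554 genes an unadjusted p under 0.05. The levels of 14 of these genes are described here.

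**Figure D2:**
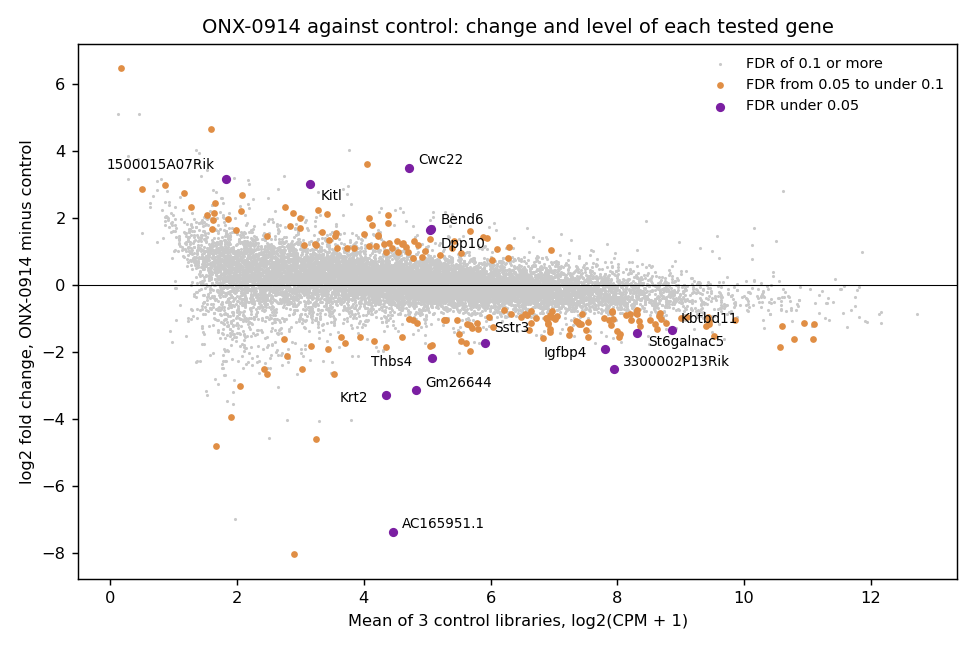
Log2 fold change of each tested gene, ONX-0914 minus control (vertical axis), against its mean level in the 3 control libraries as log2(CPM + 1) (horizontal axis). The 14 described genes with an FDR under 0.05 are named in purple, and genes with an FDR from 0.05 to under 0.1 are in orange, mostly lower at the right and higher at the left.

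Upstream sequences are shown only for described genes that were called, those with an FDR under 0.05. Shared regulation was not tested. Of the 14 genes, 10 had an entry among the RefSeq promoters of build GRCm38.p6, and 5 met the rule for display. The rule asked for a single entry whose start matched that of an annotated transcript, with no transcript of the gene reaching farther upstream. Genes on an excluded chromosome were not taken. The 250 bases before the transcription start follow, read along the gene's strand, with matches in capitals to TATAAA (the TATA box), CCAAT (the CCAAT box), GGGCGG (the GC box) or TGACGTCA (the cAMP response element) on either strand. No gene coordinates of the counted build, GRCm39, are given.
Dpp10, chr1:124045560-124045809 (minus strand): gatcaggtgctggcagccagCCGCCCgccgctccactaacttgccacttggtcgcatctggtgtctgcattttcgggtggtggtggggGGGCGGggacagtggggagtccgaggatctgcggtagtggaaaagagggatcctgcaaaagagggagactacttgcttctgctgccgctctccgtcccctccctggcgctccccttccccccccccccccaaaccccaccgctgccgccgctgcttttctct
Igfbp4, chr11:99040994-99041243 (plus strand): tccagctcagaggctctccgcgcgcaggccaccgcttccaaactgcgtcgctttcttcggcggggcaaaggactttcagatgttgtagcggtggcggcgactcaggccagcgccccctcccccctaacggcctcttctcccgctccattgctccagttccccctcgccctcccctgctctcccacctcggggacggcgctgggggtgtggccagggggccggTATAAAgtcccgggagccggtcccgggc
Thbs4, chr13:92794819-92795068 (minus strand): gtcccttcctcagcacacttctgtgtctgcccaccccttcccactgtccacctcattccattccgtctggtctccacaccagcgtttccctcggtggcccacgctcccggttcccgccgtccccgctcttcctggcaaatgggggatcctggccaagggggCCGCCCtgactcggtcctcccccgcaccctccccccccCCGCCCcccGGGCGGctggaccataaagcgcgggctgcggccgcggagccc
Krt2, chr15:101818170-101818419 (minus strand): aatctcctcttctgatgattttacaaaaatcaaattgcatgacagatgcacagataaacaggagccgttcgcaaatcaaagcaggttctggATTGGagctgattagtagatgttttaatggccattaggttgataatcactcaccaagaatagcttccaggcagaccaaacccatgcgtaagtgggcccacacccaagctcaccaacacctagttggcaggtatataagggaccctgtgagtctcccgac
3300002P13Rik, chr7:3423446-3423695 (minus strand): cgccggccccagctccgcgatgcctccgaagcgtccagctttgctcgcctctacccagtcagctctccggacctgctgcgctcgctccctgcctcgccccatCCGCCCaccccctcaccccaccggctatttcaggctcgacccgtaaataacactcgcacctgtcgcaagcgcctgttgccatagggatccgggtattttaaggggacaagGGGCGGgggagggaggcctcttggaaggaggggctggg
Only the first of these genes rose, and the other 4 fell. Dpp10 and 3300002P13Rik each held 2 GC boxes and Thbs4 held 3, a motif found in 32.7% of all 32851 promoter entries over the same length. Igfbp4 held a TATA box that begins 28 bases before the start, and 12.4% of all entries held this motif. Krt2 held a CCAAT box, found in 33.8% of all entries. None of the 5 held the cAMP response element, which 1.55% of all entries did. The GC content was 65.2% in Dpp10, 69.2% in Igfbp4, 70.8% in Thbs4, 45.2% in Krt2 and 66.4% in 3300002P13Rik, against a median of 52.4%. These matches are letters in a sequence and do not show binding.

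Among the genes that rose, Dpp10 encodes an auxiliary subunit of Kv4 potassium channels, which carry the A-type current of dendrites. Dpp10 (ENSMUSG00000036815) had 34.2, 29.4 and 32.2 CPM in control replicates 1 to 3, 101 and 99.1 CPM in ONX-0914 replicates 1 and 2, and 32.2 and 26.4 CPM with DMSO. The ONX-0914 libraries were close to each other and well above the other 5, and the Log2FC was 1.64 ± 0.171 (estimate ± standard error, FDR = 0.0199 in edgeR's quasi-likelihood test). Bend6 (ENSMUSG00000042182), a nuclear protein that represses Notch target genes, had 31.0, 35.7 and 30.6 CPM in control, 86.1 and 119 CPM with ONX-0914, and 37.3 and 44.98 CPM with DMSO. Its Log2FC was 1.66 (standard error 0.201, FDR = 0.0336, edgeR), again with no overlap between groups.

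Kitl (ENSMUSG00000019966) had 7.49, 8.18 and 7.99 CPM in control, 85.6 and 42.8 CPM with ONX-0914, and 14.8 and 11.4 CPM with DMSO. The DMSO libraries thus lay above control and far below ONX-0914. The Log2FC was 3.005 (standard error 0.319, FDR = 0.0199, edgeR). Leaving out ONX-0914 replicate 1 gave 2.42, and leaving out replicate 2 gave 3.43. Kit, the gene of the receptor, belonged with Kitl to the list of growth factors and binding proteins. In this list 2 of 33 tested genes were called, Kitl and Igfbp4, where 0.114% of all tested genes were.

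Cwc22 (ENSMUSG00000027014) encodes a protein that places the exon junction complex on spliced RNA. It had 23.2, 28.1 and 24.2 CPM in control, 396 and 170 CPM with ONX-0914, and 141 and 215 CPM with DMSO, for a Log2FC of 3.49 against control (standard error 0.359, FDR = 0.0199, edgeR). All 4 injected libraries lay above all control libraries, and the ranges of ONX-0914 and DMSO overlapped. Some mice carry near-identical copies of Cwc22, among which reads cannot be divided with certainty. The antisense gene 1500015A07Rik (ENSMUSG00000098702) was likewise above control in all injected libraries. It had 2.14, 3.27 and 2.20 CPM in control, 30.5 and 17.05 CPM with ONX-0914, and 40.0 and 40.3 CPM with DMSO, so that the DMSO libraries were the highest of all. In the antisense gene AC165951.1 (ENSMUSG00000117786), the control libraries had 22.5, 22.1 and 18.2 CPM, the ONX-0914 libraries 0 and 0.132 CPM, and both DMSO libraries 0. The ONX-0914 libraries held 2 counts together, for a ratio of 0.00504 to control (95% exact interval from 0.000606 to 0.0184, counting error only). The strand setting of the counting is not given in the sources used here, so the counts of both antisense genes are uncertain.

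Of the genes that fell, Sstr3 and Igfbp4 act in peptide and growth factor signalling. Sstr3 (ENSMUSG00000044933), the somatostatin receptor found on neuronal primary cilia, had 59.9, 59.7 and 58.9 CPM in control, 18.4 and 17.8 CPM with ONX-0914, and 58.8 and 52.8 CPM with DMSO. The spread within each group was small, and the Log2FC was −1.72 (standard error 0.172, FDR = 0.0199, edgeR). Igfbp4 (ENSMUSG00000017493), a secreted protein that binds insulin-like growth factors and keeps them from their receptor, had 262, 183 and 222 CPM in control, 54.6 and 62.4 CPM with ONX-0914, and 233 and 218 CPM with DMSO. Its Log2FC was −1.92 (standard error 0.207, FDR = 0.0199, edgeR), and the DMSO libraries lay within the control range. The other receptors for somatostatin were not called. Sstr4 stood at 2.01 CPM in the first and 14.7 CPM in the second ONX-0914 library, against 19.3 to 19.6 CPM in control, and Sstr2 had 9.56 and 11.2 CPM against 4.99 to 7.09 CPM.

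Thbs4, Krt2 and St6galnac5 encode proteins of the matrix, the cytoskeleton and the cell surface. Thbs4 (ENSMUSG00000021702), a matrix protein of the thrombospondin family, whose members promote synapse formation, had 30.3, 31.9 and 36.4 CPM in control, 5.79 and 8.19 CPM with ONX-0914, and 28.7 and 19.99 CPM with DMSO (Log2FC −2.19, standard error 0.266, FDR = 0.0336, edgeR). Krt2 (ENSMUSG00000064201) had 17.1, 14.7 and 26.4 CPM in control, 2.52 and 1.72 CPM with ONX-0914, and 16.6 and 22.8 CPM with DMSO (Log2FC −3.29, standard error 0.391, FDR = 0.0336, edgeR). In both genes, the ONX-0914 libraries were below all 5 others. Another keratin gene, Krt5, did not pass the threshold. It had 15.3, 5.73 and 4.41 CPM in control, 0.503 and 0.264 CPM with ONX-0914, and 5.10 and 14.3 CPM with DMSO (FDR = 0.0742, edgeR). St6galnac5 (ENSMUSG00000039037), a sialyltransferase that modifies brain gangliosides, had 354, 290 and 310 CPM in control, 105 and 128 CPM with ONX-0914, and 333 and 342 CPM with DMSO (Log2FC −1.44, standard error 0.184, FDR = 0.0425, edgeR). Here too the DMSO libraries were within the control range.

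Kbtbd11 (ENSMUSG00000055675), whose protein has kelch repeats and a BTB domain, had 446, 464 and 484 CPM in control, 162 and 201 CPM with ONX-0914, and 404 and 398 CPM with DMSO (Log2FC −1.35, standard error 0.178, FDR = 0.0470, edgeR). This was the smallest change among the called genes. The lincRNA gene 3300002P13Rik (ENSMUSG00000107585) had 258, 239 and 240 CPM in control, 40.8 and 45.1 CPM with ONX-0914, and 199 and 291 CPM with DMSO (Log2FC −2.51, standard error 0.217, FDR = 0.00991, edgeR). Gm26644 (ENSMUSG00000097683) had 25.0, 29.2 and 27.8 CPM in control, 2.77 and 3.24 CPM with ONX-0914, and 34.3 and 45.3 CPM with DMSO (Log2FC −3.14, standard error 0.255, FDR = 0.00898, edgeR), so the DMSO libraries lay above control and the ONX-0914 libraries below it.

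**Figure D3:**
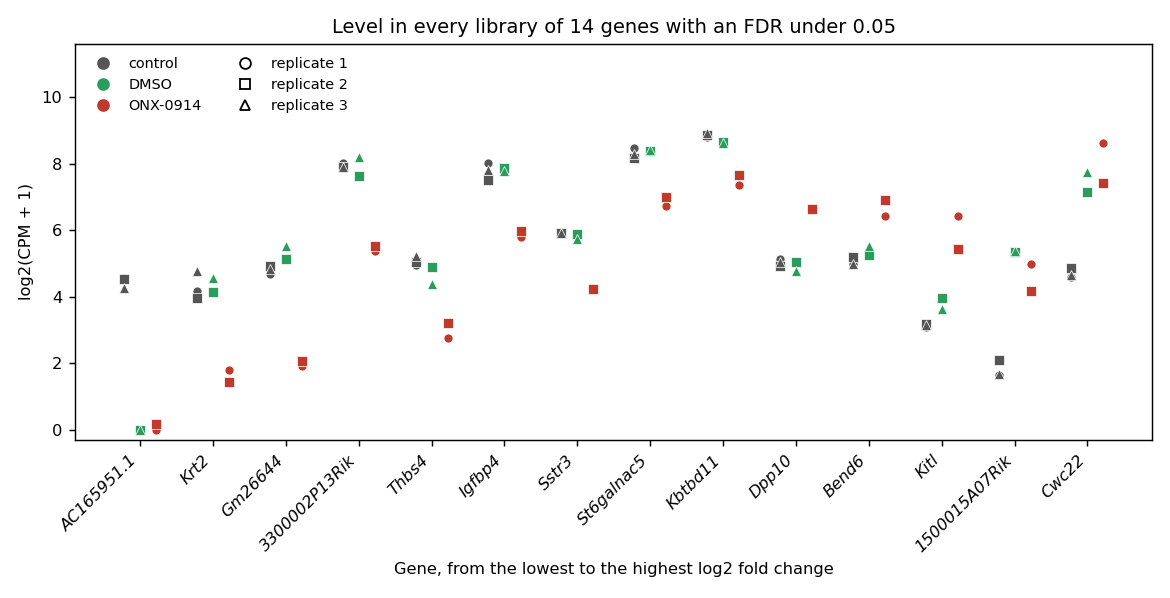
Level in each library, as log2(CPM + 1) (vertical axis), of 14 genes with an FDR under 0.05, ordered by their log2 fold change (horizontal axis), with control in grey, DMSO in green and ONX-0914 in red. Both ONX-0914 libraries lie outside the control range in each gene, and in Cwc22, 1500015A07Rik, Kitl, Bend6, AC165951.1, Thbs4, Kbtbd11 and Sstr3 both DMSO libraries lie outside it on the same side, in Sstr3 and Kbtbd11 close to it.

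The fit was repeated with each ONX-0914 library left out. Without replicate 1 and without replicate 2, the Log2FC was 1.63 and 1.66 for Dpp10, 1.86 and 1.40 for Bend6, −1.75 and −1.70 for Sstr3, and −1.84 and −2.02 for Igfbp4. It was −2.02 and −2.51 for Thbs4 and −3.50 and −2.94 for Krt2. For Cwc22 it was 2.74 and 3.96. None of the 14 genes changed direction under any alternative setting. Both ONX-0914 libraries lay outside the control range in each of them, so leaving out 1 library could not test the direction. The fits without replicate 1 rest on replicate 2 as the only ONX-0914 library. Its summed thalamus and striatum markers were somewhat below the control range, its CA1 markers somewhat above it and its dentate gyrus markers within it. Its CA3 markers summed to 360 CPM, against 678 to 768 CPM in control. The part of CA3 markers, blood, mitochondrial reads and depth in the changes was not tested.

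At a wider threshold, an FDR under 0.1, 194 genes (1.48%) differed between ONX-0914 and control, 77 higher (0.585%) and 117 lower (0.89%). The lower genes had a median level of 121.6 CPM in control and a median Log2FC of −1.20, and 90 of them differed at least 2-fold. The higher genes had a median level of 15.85 CPM in control and a median Log2FC of 1.47, with 68 differing at least 2-fold. The median of all tested genes was 24.6 CPM, so the lower genes were counted at higher levels than the higher ones. These levels are reads and are not divided by gene length. Of the 117 lower genes 103 were protein-coding, and of the 77 higher genes 71 were, where 12411 of all 13152 tested genes were protein-coding. Genes between both thresholds are given with their values, as not called. Each gene list is described by the number of its tested members with both ONX-0914 libraries above, or both below, the control range, to be read against 16.9% and 16.3% of all tested genes. Numbers of list members with an FDR under 0.1 are to be read against 1.48% of all tested genes, and numbers of called members against 0.114%.

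The RNA levels of the drug targets overlapped between the groups. None of the 5 immunoproteasome and activator genes (Psmb8, Psmb9, Psmb10, Psme1 and Psme2) was called, and in all 5 the ONX-0914 and control libraries overlapped, with a median Log2FC of −0.12 (−0.50 without ONX-0914 replicate 1 and 0.13 without replicate 2). Psmb8, which encodes the subunit that ONX-0914 binds, had 4.28, 2.999 and 1.38 CPM in control and 2.52 and 3.50 CPM with ONX-0914 (Log2FC 0.17, standard error 0.497). Psmb9 had 3.57, 3.82 and 3.58 CPM in control and 4.03 and 2.25 CPM with ONX-0914 (Log2FC −0.35, standard error 0.415). Both genes were thus low in all libraries, and their direction depended on the libraries kept. Psmb10 had 41.4, 30.3 and 37.2 CPM in control and 30.5 and 27.4 CPM with ONX-0914 (Log2FC −0.33, standard error 0.207). These are RNA levels, and the activity of the subunits was not measured by them.

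Of the 14 constitutive 20S core genes, none was called, 1 lay above and 2 lay below all control libraries, and the median Log2FC was −0.01. Psmb5, the constitutive counterpart of Psmb8, had 47.4, 55.1 and 46.5 CPM in control, 30.7 and 23.9 CPM with ONX-0914, and 52.3 and 56.4 CPM with DMSO (Log2FC −0.87, standard error 0.194, FDR = 0.105, edgeR). It lay below all other libraries without passing the threshold. The 18 genes of the 19S cap gave a median of −0.12 (−0.48 without ONX-0914 replicate 1 and −0.03 without replicate 2), with 5 below and 1 above all control libraries, and the list summed to 2730 CPM in the first ONX-0914 library and 1777 CPM in the second, against 2669 to 2769 CPM in control. For the core, the sums were 1598 and 941 CPM against 1500 to 1632 CPM. The lower level of the summed lists was therefore found in replicate 2, the deeper library. Of the core genes, Psmb7 fell most in replicate 2. It stood at 602 CPM in replicate 1 but at 50.6 CPM in replicate 2, below the 521 to 568 CPM of the control libraries. In replicate 2, 6 of the 14 core genes lay above the control range, and the median log2 difference of the list was −0.05. The core sum thus does not show a general fall of its genes. The 10 genes of proteasome assembly and of Nfe2l1, a factor that activates proteasome genes when degradation is blocked, had a median of −0.08 (0.06 with replicate 2 left out), with 2 above and 2 below.

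MHC class I presentation uses peptides cut by the immunoproteasome. Of its 10 tested genes none was called, and 3 lay above the control range in both ONX-0914 libraries. H2-K1 had 35.2 and 31.9 CPM against 21.04 to 27.8 CPM in control, and H2-D1 had 125 and 115 CPM against 78.5 to 105 CPM. Of 15 tested interferon response genes, 7 lay above all control libraries, 0 lay below and none was called (median Log2FC 0.41, and 0.23 without replicate 1 and 0.78 without replicate 2). Irf7, a transcription factor of the interferon response, had 0.357, 0.545 and 1.102 CPM in control, 3.78 and 5.82 CPM with ONX-0914, and 2.41 and 0 CPM with DMSO (FDR = 0.133, edgeR). The share above control, 7 of 15, stands beside 16.9% of all tested genes and rests on low counts. Of 19 tested genes of heat shock and the unfolded protein response, 5 lay above and 1 below. Herpud1, a gene of protein degradation at the endoplasmic reticulum, had 32.5 and 38.2 CPM with ONX-0914, 16.04 to 20.4 CPM in control, and 27.6 and 27.1 CPM with DMSO (FDR = 0.1002, edgeR), so all 4 injected libraries were above control.

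Among the lists of synaptic and signalling genes, the 2 with the largest shares of lower genes were those of calcium pumps and of CaMKII. The list of calcium pumps and exchangers also holds genes of calcium entry and release, such as Orai2 and Ryr2. Of its 18 tested genes, 9 lay below control in both ONX-0914 libraries and 1 above, against 16.3% and 16.9% of all tested genes. An FDR under 0.1 was found for 4 of them, all lower, where 0.89% of all tested genes were lower at this threshold. The median Log2FC was −0.41. Orai2, a subunit of the store-operated calcium channel, had 242, 241 and 292 CPM in control, 69.7 and 107 CPM with ONX-0914, and 272 and 258 CPM with DMSO (FDR = 0.0518, edgeR). The calcium pump of the plasma membrane Atp2b1 had 2204, 2262 and 2154 CPM in control, 1099 and 882 CPM with ONX-0914, and 2065 and 1727 CPM with DMSO (FDR = 0.0771, edgeR). Atp2b3 had 218 to 269 CPM in control, 113 and 95.6 CPM with ONX-0914, and 191 and 133 CPM with DMSO, and Ryr2, the calcium release channel of the endoplasmic reticulum, had 319 to 398 CPM, 149 and 203 CPM, and 333 and 277 CPM. In all 4, both ONX-0914 libraries were below the DMSO libraries as well, while Atp2b4 stood at 180 and 164 CPM against 57.8 to 113 CPM in control.

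Of the 20 genes of CaMKII, calcineurin, calmodulin and their partners, 9 lay below all control libraries and 1 above, with a median Log2FC of −0.49 (−0.58 in replicate 1 and −0.36 in replicate 2). The summed level was 14980 and 19030 CPM with ONX-0914, against 26050 to 26440 CPM in control and 26160 and 25720 CPM with DMSO. Camkv, a kinase-like protein that binds calmodulin, had 1550.2, 1625 and 1493 CPM in control and 808 and 530 CPM with ONX-0914 (FDR = 0.0796, edgeR). Camk2d, the delta isoform of CaMKII, differed in the other direction, with 12.8, 18.8 and 28.1 CPM in control and 101 and 67.7 CPM with ONX-0914 (FDR = 0.0590, edgeR). Camk2a, the main isoform of forebrain neurons, was below all control libraries in both, but the libraries were far apart, at 2084 and 5327 CPM against 6059.9 to 7438 CPM. The library low in CA1 and dentate gyrus markers, replicate 1, was also the lower one in Camk2a, and the part of these markers in the result was not tested.

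Glutamate receptors and their scaffolds were lower for some members and higher for others. Of 17 tested ionotropic receptor genes, 5 lay below and 2 above, and the summed level of the list was 2153 and 2889 CPM against 4710 to 4769 CPM in control. The median Log2FC of these receptor genes was −0.02, with 8 positive and 9 negative. Gria1, Gria2 and Grin2b, the 3 with an FDR under 0.1, were lower and are abundant. Gria1 had 1755, 1850 and 1683 CPM in control and 496 and 667 CPM with ONX-0914 (FDR = 0.0510, edgeR). Nptx1, a secreted protein that clusters AMPA receptors, had 1450.0, 1537 and 1536 CPM in control, 314 and 528 CPM with ONX-0914, and 1581 and 1496 CPM with DMSO (Log2FC −1.84, standard error 0.266, FDR = 0.0510, edgeR). Dlg3, a scaffold that binds NMDA receptors, had 389, 383 and 431 CPM in control, 213 and 209 CPM with ONX-0914, and 317 and 313 CPM with DMSO (FDR = 0.0728, edgeR). Both were lower in the ONX-0914 libraries than in all others. In the same list, the auxiliary subunits Cacng7 and Shisa9 were higher, Cacng7 at 137 and 128 CPM against 74.4 to 79.6 CPM in control and Shisa9 at 45.3 and 43.7 CPM against 18.5 to 24.2 CPM (FDR = 0.0758 and 0.0865, edgeR). Over its 31 genes, 5 lay above and 6 below, close to the shares of 16.9% and 16.3% among all tested genes. The median Log2FC was −0.03, and it turned with the library left out, to 0.14 without ONX-0914 replicate 1 and −0.45 without replicate 2.

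At the presynaptic side, 11 of 42 genes of vesicle release lay below and 7 above all control libraries, beside 16.3% and 16.9% of all tested genes. The median Log2FC was −0.13, and 0.0017 without ONX-0914 replicate 1. Cplx2, a complexin that controls fusion, had 1225 and 1287 CPM against 2222 to 2670.2 CPM in control, and Unc13a, which primes vesicles, had 280 and 322 CPM against 452 to 531 CPM, with an FDR of 0.105 and 0.119 (edgeR). Syt6 was the only gene of the list with an FDR under 0.1, at 18.4 and 11.96 CPM against 2.14 to 4.63 CPM in control. Rims3, Unc13c and Otof were above control in both libraries but far higher in replicate 1, the library with the high thalamus and striatum markers. For example, Unc13c had 149 and 33.7 CPM against 11.5 to 23.96 CPM. Among 31 adhesion genes, Epha4, a receptor for ephrins, had 228 and 351 CPM against 664 to 695 CPM in control, whereas Cbln2, Igsf21 and Lrrtm3, which organise synapses, were higher, each with an FDR under 0.1. Cbln2 had 27.7 and 18.4 CPM against 6.27 to 7.84 CPM.

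Of 58 genes of potassium channels and their partners, Dpp10 was called, and 14 lay below and 8 above all control libraries, beside 16.3% and 16.9% of all tested genes. The median Log2FC was 0.20, but −0.28 without ONX-0914 replicate 2, and the median log2 difference from control was −0.22 in replicate 1 and 0.21 in replicate 2. Kcnab2, a beta subunit, had 1983, 2003 and 1924 CPM in control, 930.5 and 864 CPM with ONX-0914, and 2006 and 1910.2 CPM with DMSO (FDR = 0.0728, edgeR). Kcnj3, a subunit of the channels opened by G proteins, had 292, 253 and 292 CPM in control, 151 and 149 CPM with ONX-0914, and 264 and 235 CPM with DMSO (FDR = 0.0742, edgeR). Kcnip2, which like Dpp10 binds Kv4 channels, had 132 and 177 CPM against 254 to 348 CPM in control (FDR = 0.108, edgeR). Thus the Kv4 partners differed in direction, Dpp10 higher and Kcnip2 lower. Kcnt1, a channel opened by sodium, had 54.4 and 44.1 CPM against 14.97 to 19.8 CPM. Of 29 calcium, sodium and HCN channel genes, none had an FDR under 0.1.

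GABA-A receptors open a chloride channel and inhibit neurons. Of 12 tested GABA-A subunits, 6 lay above and 2 below all control libraries, beside 16.9% and 16.3% of all tested genes. The median Log2FC was 0.44, and 0.19 without ONX-0914 replicate 2. Gabrd, the delta subunit of receptors outside the synapse, had 15.7, 14.4 and 21.8 CPM in control, 39.5 and 38.5 CPM with ONX-0914, and 19.6 and 17.8 CPM with DMSO (FDR = 0.0756, edgeR). Gabra4, often found with it, had 132 and 133 CPM against 73.3 to 84.8 CPM in control (FDR = 0.104, edgeR). In both genes the ONX-0914 libraries lay close together. Of 24 tested receptors for peptides, adenosine, cannabinoids and opioids, 8 lay below and 4 above, beside 16.3% and 16.9% of all tested genes. Npy2r, a receptor of neuropeptide Y, had 52.1, 51.0 and 46.8 CPM in control, 7.05 and 17.2 CPM with ONX-0914, and 42.9 and 50.0 CPM with DMSO (FDR = 0.0728, edgeR). Adora1 and Cnr1, receptors that restrain transmitter release, were also below all control libraries, with an FDR of 0.101 and 0.124 (edgeR). Of 17 tested neuropeptide precursors, Chgb, a granin of dense-core vesicles, had 2127, 2124 and 2241 CPM in control and 785 and 641 CPM with ONX-0914 (FDR = 0.0509, edgeR). In this list 4 genes lay above and 1 below, and the median Log2FC of 0.57 was 0.10 without ONX-0914 replicate 1. Its summed level was lower than control in both libraries, at 2880 and 1737 CPM against 3342 to 3570 CPM.

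**Figure D4:**
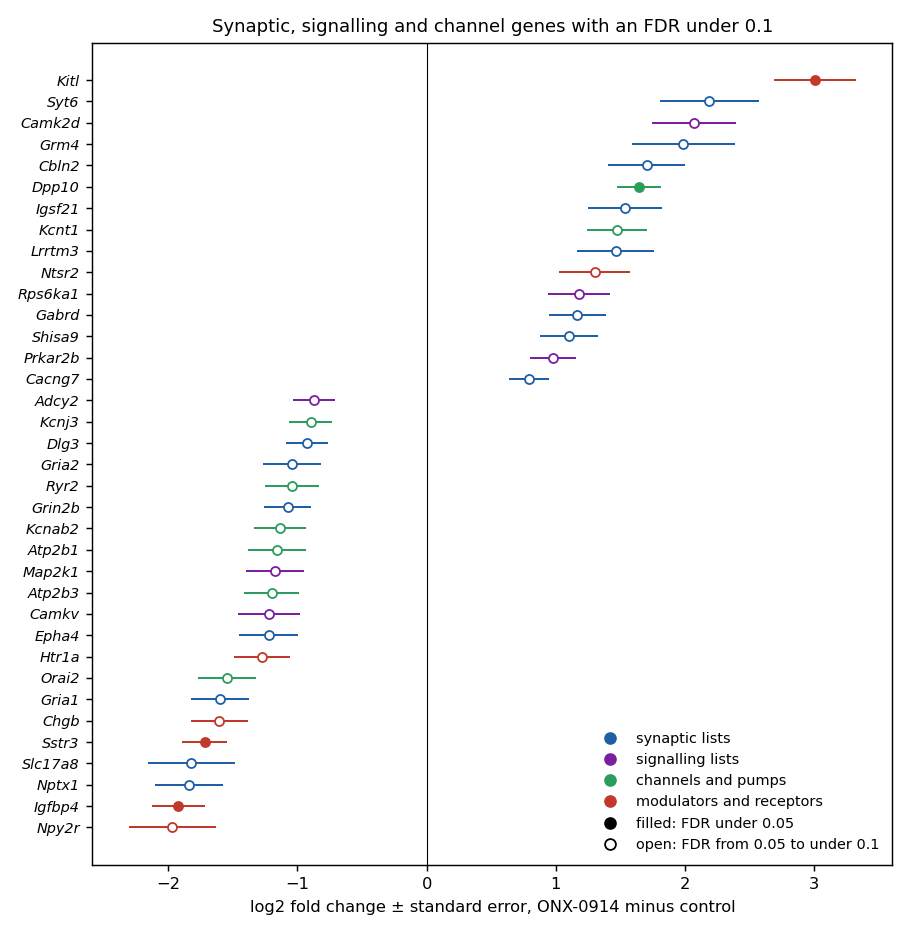
Log2 fold change with its standard error, ONX-0914 minus control (horizontal axis), of 36 synaptic, signalling, channel and modulator genes with an FDR under 0.1, coloured by list, with filled symbols for an FDR under 0.05. Of the genes drawn 15 are higher and 21 lower, beside 77 higher and 117 lower among all tested genes at this threshold, and Kitl, Dpp10, Sstr3 and Igfbp4 carry filled symbols. Lefty1, a lower gene of these lists (FDR = 0.0747, edgeR), is not drawn. It held 0 counts in both ONX-0914 libraries, so its Log2FC of −8.03 (standard error 1.41) depends on the prior count of the fit. With 3 counts taken as the lowest level resolved in a library, the fall was at least 13.5-fold.

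In the signalling lists, the ERK kinase gene Map2k1 had 613, 743 and 726 CPM in control, 368 and 249 CPM with ONX-0914, and 690 and 706 CPM with DMSO (FDR = 0.0756, edgeR). Its list of 24 genes had 7 below and 3 above, with a median of 0.04 that turned to −0.26 when ONX-0914 replicate 2 was left out. Adcy2, an adenylyl cyclase, had 288 to 296 CPM in control and 149 and 171 CPM with ONX-0914, while Prkar2b, a regulatory subunit of the cAMP-dependent kinase, had 21.3 to 22.9 CPM and 45.8 and 41.8 CPM (FDR = 0.0742 for both, edgeR). These genes of the same pathway differed in opposite directions, and of the 24 cAMP genes 7 lay above and 4 below. Of 22 immediate early genes, which neuronal activity switches on, none was called, 6 lay below and 1 above. Arc had 107, 88.9 and 95.3 CPM in control, 34.5 and 66.0 CPM with ONX-0914, and 448 and 345 CPM with DMSO (FDR = 0.162, edgeR).

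Mitochondrially encoded genes were above control in both libraries. All 7 tested mitochondrially encoded protein genes lay above the control range in both ONX-0914 libraries, with a median log2 difference of 0.48 in replicate 1 and 1.87 in replicate 2, and none was called (smallest FDR = 0.139, edgeR). mt-Nd4 had 420, 343 and 287 CPM in control, 469.9 and 2155 CPM with ONX-0914, and 463 and 530 CPM with DMSO. Replicate 1 was thus within the DMSO range, and the larger difference was that of replicate 2. Of 57 nuclear genes of the respiratory chain, 17 lay above and 1 below, where 16.9% and 16.3% of all tested genes did, with a median Log2FC of 0.20 (0.33 without replicate 1). Of 76 cytosolic ribosomal protein genes, 12 lay above and 4 below, with medians of 0.03 and 0.38 in replicates 1 and 2.

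**Figure D5:**
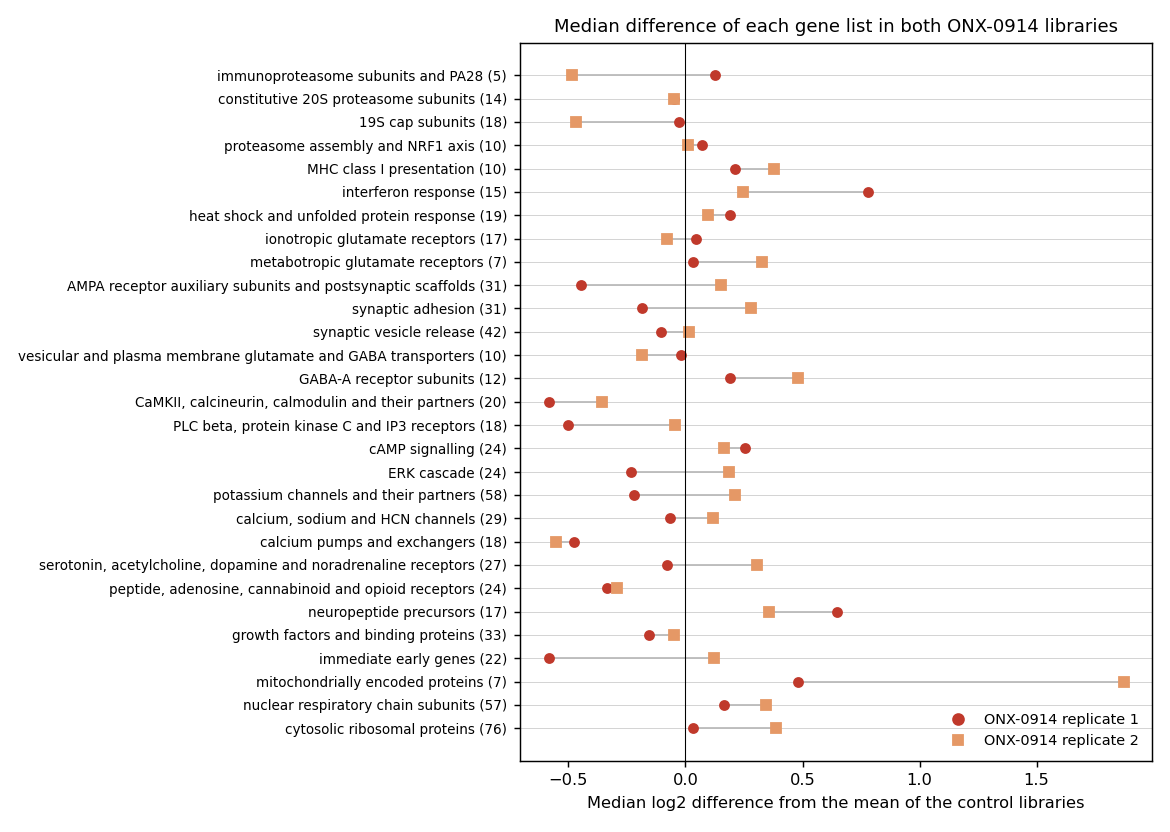
Median log2 difference from the mean of the control libraries (horizontal axis) over the tested genes of each list other than the cell type markers, whose number is in brackets, in ONX-0914 replicate 1 (red circles) and replicate 2 (orange squares), joined by a line. Both libraries lie left of 0 for the CaMKII list and for calcium pumps and exchangers, and among the lists drawn they lie farthest apart for the mitochondrially encoded proteins, at 0.48 and 1.87.

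Several marker lists differed between the ONX-0914 libraries. The thalamus list had a median log2 difference of 2.83 in replicate 1 and −0.55 in replicate 2, and Prkcd, Tcf7l2, Synpo2 and Rgs16 overlapped control through the values of replicate 2. CA1 markers had medians of −1.76 and 0.07 and dentate gyrus markers of −1.34 and −0.01. In the CA3 list, both libraries were low. It summed to 436 and 360 CPM, against 678 to 768 CPM in control and 729 and 816 CPM with DMSO, and all 8 tested genes had a negative Log2FC, 4 of them below all control libraries. Grik4, a kainate receptor subunit of CA3 neurons, had 66.3, 63.0 and 55.4 CPM in control, 18.4 and 33.7 CPM with ONX-0914, and 66.8 and 71.8 CPM with DMSO (FDR = 0.101, edgeR). The CA1 marker Lefty1, which encodes a secreted inhibitor of Nodal signalling, held 18 to 24 counts in control and 0 in both ONX-0914 libraries, and the DMSO libraries had 0 and 3.21 CPM.

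Endothelial markers were higher in both libraries. Of the 12 endothelial genes, 11 lay above the control range in both ONX-0914 libraries, where 16.9% of all tested genes did, and 0 below, and the list summed to 493 and 502 CPM, against 311 to 341 CPM in control and 347 and 394 CPM with DMSO. Cldn5, a tight junction protein of the blood–brain barrier, had 24.2, 18.0 and 26.7 CPM in control, 44.8 and 45.1 CPM with ONX-0914, and 22.8 and 27.1 CPM with DMSO (FDR = 0.105, edgeR). No endothelial gene passed the threshold. Of 7 tested genes of mural cells, which surround the vessels, 2 lay above and 0 below, with a median Log2FC of 0.06, and the list summed to 177 and 182 CPM against 116 to 149 CPM in control. Of the 4 tested blood genes, 3 had an FDR under 0.1, where 1.48% of all tested genes did. Hba-a1, an alpha globin with near-identical copies, had 15.7, 18.0 and 13.2 CPM in control and 49.8 and 332 CPM with ONX-0914, and Alas2, the first enzyme of heme synthesis in red cells, had 2.73 to 3.57 CPM and 8.31 and 31.1 CPM. Microglial markers summed to 407 and 551 CPM against 335 to 368 CPM, with 5 of 12 genes above control and 0 below. Interneuron markers summed to 1732 CPM in replicate 1 and 1071 CPM in replicate 2 against 976 to 1072 CPM, and astrocyte markers to 6624 and 5961 CPM against 6716 to 7155 CPM.

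Across all tested genes, the protein-coding genes with the largest differences at an FDR under 0.1 included several counted at low levels. Rasgef1b, an exchange factor for small GTPases, had 3.57, 4.36 and 9.36 CPM in control and 36.0 and 23.2 CPM with ONX-0914, and Rasgef1c had 0.713, 1.91 and 1.102 CPM and 7.30 and 9.85 CPM. Scoc, a Golgi protein that takes part in autophagy, had 7.49 to 10.4 CPM in control and 29.2 and 53.1 CPM with ONX-0914, with 8.32 and 15.3 CPM in the DMSO libraries (FDR = 0.0518, edgeR). Pcp4, a calmodulin-binding peptide that is also in the list of CA2 markers, had 4.13 to 9.63 CPM in control and 24.4 and 31.3 CPM with ONX-0914. In these 4 genes, both ONX-0914 libraries were above all others. Among the lower genes, Psmc3ip, a cofactor of meiotic recombination, had 10.3, 9.82 and 11.3 CPM in control, 0.755 and 2.05 CPM with ONX-0914, and 2.15 and 1.43 CPM with DMSO (FDR = 0.0518, edgeR). Dnah8, an axonemal dynein, had 4.63 to 7.63 CPM in control, 1.26 and 1.39 CPM with ONX-0914, and 1.61 and 1.78 CPM with DMSO. In both, all 4 injected libraries were below control. Frat2, an inhibitor of the kinase GSK3, had 27.5 to 35.7 CPM in control, 12.6 and 6.41 CPM with ONX-0914, and 26.02 and 34.3 CPM with DMSO, so only the ONX-0914 libraries were low.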

How the data were processed

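Per the labels, total RNA of hippocampus was made into directional libraries and sequenced single-end. The authors deposited whole-number read counts per gene and library, without normalization, for 55416 Ensembl identifiers. The submitters' processing notes name Trimmomatic 0.39, STAR 2.7.3a, featureCounts 2.00 and the build GRCm39, and the annotation release and the strand setting are not given in the sources used here. Reads assigned to genes were 89.6% to 91.4% of each library. Those that overlapped no gene (4.75% to 6.49%) or were ambiguous (3.75% to 3.92%) stayed out of library sizes and tests. Symbols and gene types came from GENCODE M21, which holds 52135 of the identifiers.

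The software was edgeR 4.0.16 in R 4.3.3. After filterByExpr over 3 groups and TMM scaling (factors 0.965 to 1.10), a quasi-likelihood model with 1 mean per group was fitted to all 7 libraries, and the contrast ONX-0914 minus control was tested with Benjamini–Hochberg adjustment (FDR under 0.05, or 0.1 where stated). The prior count was 0.125, and the common biological coefficient of variation was 0.249. Standard errors come from the F statistics. Log2 differences of single libraries used a prior count of 2. Samples were grouped by their labels. "Above" or "below" means both ONX-0914 libraries outside the range of the 3 control libraries. A total count of 2842675 to 13782270 limits the precision of genes at a few CPM. Intervals cover counting error only.

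The named genes were a set of 94 formed by rule, and not all of them are described in the text. The set held the described genes with an FDR under 0.05, and Psmb8, Psmb9, Psmb10 and Psmb5. Of the remaining protein-coding genes with an FDR under 0.1, it took the 12 that rose most and the 12 that fell most. From each list it took the genes with an FDR under 0.1, or else the gene with the smallest p. Other list members were chosen for description after their values were seen. The 45 gene lists and the comparison were chosen with earlier results of these data known. Lists are described by counts and medians, with no test. Results of some genes are not reported here. Promoters came from RefSeq. Alternatives were DESeq2 1.42.0, limma 3.58.1 with voom, RLE and total-count scaling, no filter, at least 10 counts in every library, the 5 compared libraries alone, the replicate number as a block, robust estimation, mitochondrially encoded genes left out, and each library left out in turn. The older quasi-likelihood fit and thinning of ONX-0914 replicate 2 to the depth of replicate 1 were added after seeing the data. The edgeR steps were tested on simulated data. The electrophysiology, the qPCR and the enrichment analyses of the study were not analysed here.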

Additional observations from a re-analysis of the deposited data

Results flagged for a closer look

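The immediate early genes stood out in libraries outside the comparison, above the level of the control libraries. Their summed level was 1627 CPM in DMSO replicate 2 and 1365 CPM in DMSO replicate 3, against 725 to 861 CPM in control and 441 and 898 CPM in ONX-0914 replicates 1 and 2. Arc, a postsynaptic protein induced by activity, contributed 448 and 345 CPM of it, against 88.9 to 107 CPM in control.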

How the results depend on the processing

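The number of genes called between ONX-0914 and control at an FDR under 0.05, 15, was within 1.5 times of that with limma voom (18), RLE size factors (20), total counts (14), at least 10 counts in every library (11), robust estimation (19), mitochondrially encoded genes left out (17), the older quasi-likelihood fit (18) and ONX-0914 replicate 2 thinned to the depth of replicate 1 (21), the last 2 chosen after seeing the data. It was 388 with DESeq2, 578 with low counts left unfiltered and 3 with the 5 compared libraries alone, and all 15 were among the genes called by DESeq2 and without a filter. With total counts 8 genes were higher and 6 lower, and the median Log2FC of all genes was 0.19. At an FDR under 0.1, the count was 194, and it was 589 with DESeq2, 325 with total counts, 1013 without a filter and 8 with the 5 compared libraries alone. Leaving out 1 library at a time gave 0 to 7023 genes at 0.05 and 1 to 7993 genes at 0.1. The counts were 0 to 3 without a control or DMSO library, 2594 without ONX-0914 replicate 2 and 7023 without ONX-0914 replicate 1, where the lone ONX-0914 library is assumed to vary like the other groups. The cause was not tested. Of the named genes, Psmb8 changed sign without control replicate 3 (Log2FC −0.20) and without ONX-0914 replicate 2 (−0.14), over a range of −0.20 to 0.51 when 1 library was left out, and Psmb9 without ONX-0914 replicate 2 (0.13), over a range of −0.71 to 0.13. With the replicate number as a block, 1 gene was called at 0.05 and 5 at 0.1, but the numbers did not pair the libraries, since the deviations of same-numbered control and ONX-0914 libraries correlated at 0.016 and 0.024. Over all alternatives, the Log2FC of the named genes kept its direction and its side of 0.05 in 1374 cases, passed 0.05 only then in 288 and lost it in 95, and the list medians moved beyond their spread in 103 cases and stayed within it in 751. With 2 ONX-0914 libraries, the spread under treatment rests on a single difference.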

Other observations

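Processed pseudogenes, which are gene copies made from spliced RNA and often share reads with their parent genes, were lower in 1 of the ONX-0914 libraries. Over the 187 tested, the median log2 difference from control was 0.03 in ONX-0914 replicate 1 and −2.03 in replicate 2. Both libraries lay below all control libraries in 41 of them and above in 6, none was called, and the median Log2FC was −1.06. For the 12411 protein-coding genes, the medians were 0.04 in both libraries. Replicate 2 was also the deepest library, and the part of depth, preparation and alignment in this difference was not tested.

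After the counts of ONX-0914 replicate 2 were thinned to the depth of replicate 1, 14 of the 15 called genes were among the 21 called then. The heat shock and unfolded protein list summed to 4656 CPM in replicate 1 and 2939 CPM in replicate 2, against 4082 to 4515 CPM in control and 5634 and 5256 CPM with DMSO, so the injected libraries did not move together. Oligodendrocyte markers likewise summed to 10700 and 4774 CPM, on both sides of the control range of 5452 to 8195 CPM.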
